A study of Mus musculus with 4 samples.

Results

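The nuclear genes for subunits of the oxidative phosphorylation complexes were taken from RNA-seq of the lesion site after spinal cord injury (SCI) in mice. Members were chosen by symbol, with pseudogene symbols left out. For complex I these were Ndufa, Ndufb, Ndufc, Ndufs and Ndufv followed by a number alone, which leaves out Ndufab1 and Ndufa4l2. For the others they were complex II (Sdha to Sdhd), complex III (Uqcr genes), complex IV (Cox4 to Cox8 genes, with Ndufa4) and complex V (Atp5 genes). The rule gave 81 genes of 14715 listed at either time point. All 81 were among the 14122 genes listed at 7 days post injury (dpi), 34 of complex I, 4 of complex II, 8 of complex III, 18 of complex IV and 17 of complex V. At 21 dpi 11469 genes were listed and 65 of them were members, 28, 4, 8, 14 and 11 in the same order. Of the 81 genes, Cox7a2l encodes a factor that joins complexes III and IV into supercomplexes and is not itself a core subunit, and 6 are isoforms of complex IV subunits restricted to certain tissues. Of the 13 subunits encoded by mitochondrial DNA, 0 were listed at either time point, so they were not analysed here.

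The mice were male and carried the coding region of human ApoE3 or human ApoE4 in place of mouse Apoe (targeted replacement mice), and were 3 to 5 months old when the study assigned them to surgery. All groups received an incomplete 50 kdyne contusion of the mid-thoracic cord under 3% isoflurane, and uninjured or sham-operated mice were not analysed here. RNA came from about 4 mm of cord around the lesion site, from 3 mice per genotype and time point, and each gene has 1 value for each of the 4 groups, in FPKM (fragments per kilobase of transcript, scaled to the number of mapped reads, so that levels of different genes can be set side by side). There is therefore no measure of the spread between mice, no difference below was tested, and "at least 1.3-fold" is a size and not a test. The deposited table numbers ApoE4 before ApoE3 but names the comparison ApoE3 versus ApoE4. The first value column was read as ApoE3, which is the direction in which the study describes 21 dpi from the same sequencing. Under the opposite reading ApoE3 and ApoE4 would change places in every value given here. The time points were run separately by the authors, so a difference in scale between 7 and 21 dpi is not removed from any ratio between them.

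Oxidative phosphorylation is the final stage of respiration in mitochondria. Complex I (NADH dehydrogenase) and complex II (succinate dehydrogenase) pass electrons to ubiquinone, complex III (cytochrome bc1 complex) passes them to cytochrome c, and complex IV (cytochrome c oxidase) passes them to oxygen. Complexes I, III and IV pump protons across the inner membrane, and complex V (ATP synthase) uses their return to make ATP. Most subunits are encoded in the nucleus, translated on cytosolic ribosomes and imported, and they are made to match subunits from the mitochondrial genome. In spinal cord, neurons and their axons depend on this ATP for ion pumping and synaptic transmission.

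The level of the subunit genes differed between complexes and between genes of 1 complex. Without Cox7a2l and the tissue-restricted isoforms, 74 genes remained at 7 dpi, with a median of 163 FPKM in ApoE3 and 159 FPKM in ApoE4 mice, and 58 genes at 21 dpi, with a median of 292 and 375 FPKM. At 7 dpi in ApoE3 mice the median was 108 FPKM for complex I, 122 FPKM for complex II, 136 FPKM for complex III, 323 FPKM for complex IV and 384 FPKM for complex V. Genes of 1 complex lay far apart although their products are built into the same enzyme. In complex III, Uqcr10, a small subunit, had 782 and 774 FPKM in ApoE3 and ApoE4 mice at 7 dpi and 1635 and 1879.6 FPKM at 21 dpi, whereas Uqcrc2, a core protein of the same complex, had 21.7 and 20.002 FPKM in ApoE3 and ApoE4 mice at 7 dpi and 40.1 and 47.9 FPKM at 21 dpi. By the mean over the groups in which a gene was listed, which favours genes listed at 21 dpi, Ndufa5 was highest in complex I with 298 and 266 FPKM in ApoE3 and ApoE4 mice at 7 dpi and 937 and 1271 FPKM at 21 dpi, although at 7 dpi Ndufb8 was the highest with 404 and 368 FPKM. Ndufb4 was the lowest with 24.4 and 25.3 FPKM in ApoE3 and ApoE4 mice at 7 dpi and 62.8 and 75.1 FPKM at 21 dpi; all 3 are accessory subunits. In complex II, Sdhc, a membrane anchor that binds heme, had 419 and 416 FPKM in ApoE3 and ApoE4 mice at 7 dpi and 550.0 and 605 FPKM at 21 dpi, and Sdhb, the iron-sulfur subunit, had 48.4 and 50.0 FPKM in ApoE3 and ApoE4 mice at 7 dpi and 99.6 and 136 FPKM at 21 dpi. Cox4i1 was highest in complex IV by this mean with 728 and 670.1 FPKM in ApoE3 and ApoE4 mice at 7 dpi and 1687 and 2134 FPKM at 21 dpi, but at 7 dpi Cox6b1 was above it with 970.0 and 881 FPKM. In complex V, Atp5j, part of the stalk that holds the catalytic head, had 2365 FPKM in ApoE3 and 2223 FPKM in ApoE4 mice at 7 dpi and was not listed at 21 dpi, and Atp5l, a small membrane subunit, had 108 and 102 FPKM in ApoE3 and ApoE4 mice at 7 dpi and 206 and 275 FPKM at 21 dpi.

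The order of the genes by level was much alike in all groups. Across the 74 genes the log2(FPKM + 1) values of ApoE3 and ApoE4 mice at 7 dpi had a Pearson r of 0.998 and a Spearman rho of 0.996, and across the 58 genes at 21 dpi an r of 0.996 and a rho of 0.994. Between 7 and 21 dpi the values were r = 0.971 and rho = 0.963 in ApoE3 mice and r = 0.972 and rho = 0.970 in ApoE4 mice. These points share gene length and annotation, and genes are not independent replicates.

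**Figure D1:**
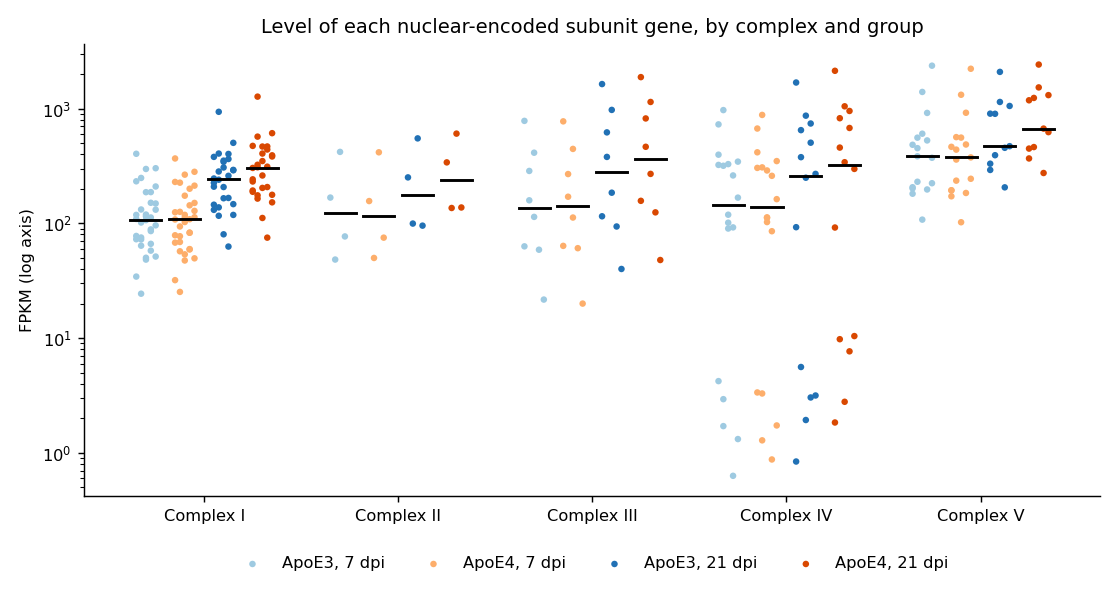
Level of each member in FPKM on a log axis, grouped by complex, with 1 point per gene and group and a black bar at the median; Cox7a2l and the tissue-restricted isoforms are included under complex IV. The points of 21 dpi lie above those of 7 dpi in each complex by their medians, and 5 complex IV isoforms lie far below the rest.

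Promoters are shown because many such genes are known targets of shared nuclear regulators. Promoter sequences from RefSeq (GRCm38.p6), from 250 bases before to 50 bases after the annotated start of transcription, matched 68 of the 81 members by symbol, all but Atp5a1, Atp5mpl, Cox4i1, Cox4i2, Cox6a2, Cox6c, Ndufa2, Ndufb9, Ndufs1, Sdhc, Uqcrb, Uqcrc2 and Uqcrq. The letters CGCATGCG, bound by nuclear respiratory factor 1 (NRF1) and the same on both strands, were in 9 of the 68 promoters (13.2%), against 3.89% of 11495 listed genes with a promoter and 2.07% of all 27025 genes in the table. The letters AAGATGGC of YY1, searched on both strands like the next motifs, were in 10 (14.7%), against 4.73% and 3.19%. The letters CAAGGTCA of ESRRA were in 4 (5.88%), against 1.39% and 1.76%, and the letters CCGGAAGT of GABP were in 5 (7.35%), against 8.19% and 4.31%. In all, 25 of the 68 promoters held at least 1 of these 4 motifs, a count that has no share over all genes to set beside it here. A match describes the letters and is not a measured binding site. The 9 promoters with the NRF1 letters belong to 4 genes of complex V, 2 of complex III, 2 of complex I and 1 of complex IV, and their windows around the motif, in capitals, show that the bases next to it differ:
Atp5g2: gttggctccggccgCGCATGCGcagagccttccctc
Atp5j: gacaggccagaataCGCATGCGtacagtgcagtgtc
Atp5k: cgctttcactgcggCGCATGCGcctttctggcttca
Atp5l: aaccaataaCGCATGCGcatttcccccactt
Cox6a1: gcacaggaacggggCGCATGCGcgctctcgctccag
Ndufa11: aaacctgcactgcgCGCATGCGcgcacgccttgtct
Ndufa8: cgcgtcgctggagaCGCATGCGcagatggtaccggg
Uqcr11: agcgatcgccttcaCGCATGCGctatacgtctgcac
Uqcrc1: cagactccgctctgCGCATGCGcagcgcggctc
On the minus strand these are Atp5g2 at chr15:102671067-102671102, Atp5j at chr16:84835102-84835137, Atp5k at chr5:108434427-108434462, Atp5l at chr9:44920962-44920992, Cox6a1 at chr5:115349098-115349133, Ndufa8 at chr2:36049326-36049361 and Uqcr11 at chr10:80406805-80406840, and on the plus strand Ndufa11 at chr17:56717689-56717724 and Uqcrc1 at chr9:108936665-108936697. Counted from the annotated start, the motif began at -41 in Atp5g2, -49 in Atp5k, -59 in Ndufa11, -9 in Ndufa8 and -5 in Uqcr11, farther upstream at -147 in Atp5j, -161 in Cox6a1 and -241 in Atp5l, and inside the transcribed region at 32 in Uqcrc1.

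The comparison of genotypes asked whether gene expression at the lesion site depends on the ApoE variant. At 7 dpi it showed subunit genes at nearly equal levels. None of the 81 members was at least 1.3-fold higher in ApoE3 mice, where 3.78% of all 14122 genes were, and none was at least 1.3-fold higher in ApoE4 mice, where 4.76% were. The median log2 ratio of ApoE3 to ApoE4 was 0.05, against 0.00 for all genes. By complex it was 0.05 for complex I, 0.02 for complex II, 0.00 for complex III, 0.04 for complex IV and 0.07 for complex V; the value of complex III was just below 0 after the all-gene median was subtracted, and that of complex IV was just below 0 over the genes listed at both time points.

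The largest ratios in each direction at 7 dpi belonged to complex IV isoforms at a low level. Cox6a2, the isoform of heart and skeletal muscle, had 4.22 FPKM in ApoE3 and 3.36 FPKM in ApoE4 mice at 7 dpi (log2 ratio 0.26), and Cox8b, another isoform of those tissues, had 1.71 FPKM in ApoE3 and 1.29 FPKM in ApoE4 mice at 7 dpi (0.25). Next were Ndufa4 with 328 FPKM in ApoE3 and 289 FPKM in ApoE4 mice at 7 dpi (0.18), Ndufa5 with a log2 ratio of 0.16 and Ndufb6 with 0.16. In the other direction were Cox7a1, also a heart and muscle isoform, with 1.32 FPKM in ApoE3 and 1.74 FPKM in ApoE4 mice at 7 dpi (-0.24), Ndufb2 with 96.1 FPKM in ApoE3 and 113 FPKM in ApoE4 mice at 7 dpi (-0.23), Cox6b2 (-0.19), Cox5a (-0.14) and Atp5e (-0.13). All of these stayed within 1.3-fold with 1 added to each FPKM value; with 0.1 added, Cox8b was past it toward ApoE3 mice and Cox7b2, whose mean FPKM at this time was below 1 and whose log2 ratio with 1 added was -0.20, toward ApoE4 mice.

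Subunits that carry the cofactors of electron transfer had close values in both genotypes at 7 dpi. Ndufv1, which binds NADH and FMN, had 102 FPKM in ApoE3 and 94.0 FPKM in ApoE4 mice at 7 dpi, and Ndufs1, which holds iron-sulfur clusters on the same arm, had 302 FPKM in ApoE3 and 281 FPKM in ApoE4 mice at 7 dpi. Ndufv2 (log2 ratio 0.10), Ndufs3 (0.10), Ndufs7 (0.03) and Ndufs8 (0.02) are core subunits as well. Sdha, the flavoprotein of complex II, had 168 FPKM in ApoE3 and 156 FPKM in ApoE4 mice at 7 dpi, and Sdhd, the other membrane anchor, had 76.9 FPKM in ApoE3 and 75.1 FPKM in ApoE4 mice at 7 dpi. In complex III, Uqcrfs1, the Rieske iron-sulfur protein, had 63.1 FPKM in ApoE3 and 63.7 FPKM in ApoE4 mice at 7 dpi, and Uqcrc1, a core protein, had 58.9 FPKM in ApoE3 and 60.8 FPKM in ApoE4 mice at 7 dpi. In the catalytic head of complex V, Atp5a1 (alpha) had 206 FPKM in ApoE3 and 194 FPKM in ApoE4 mice at 7 dpi, Atp5b (beta) had 558 FPKM in ApoE3 and 564 FPKM in ApoE4 mice at 7 dpi and Atp5c1 (gamma) had 604 FPKM in ApoE3 and 559 FPKM in ApoE4 mice at 7 dpi. The Atp5a1 and Atp5b levels differ although both subunits are present in equal number in the enzyme.

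At 21 dpi the listed values of ApoE4 mice were higher for most genes of the whole table, and the subunit genes shared this. The median log2 ratio of ApoE3 to ApoE4 was -0.42 over all 11469 genes, of which 58.9% were at least 1.3-fold higher in ApoE4 and 2.01% at least 1.3-fold higher in ApoE3 mice. Of the 65 members, 29 were at least 1.3-fold higher in ApoE4 and 0 in ApoE3 mice, a smaller share than among all genes, and their median was -0.36. After the all-gene median was subtracted, the direction of the members' median turned to 0.06, 1 member was at least 1.3-fold higher in ApoE3 mice (7.45% of all genes) and 2 were in ApoE4 mice (8.06% of all genes). These 3 were complex IV isoforms, and all other members were within 1.3-fold of the shift of the whole table.

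By complex, the median log2 ratio at 21 dpi was -0.31 for complex I (9 of 28 genes at least 1.3-fold higher in ApoE4 mice, where 58.9% of all genes were), -0.44 for complex II (3 of 4), -0.35 for complex III (4 of 8), -0.37 for complex IV (6 of 14) and -0.41 for complex V (7 of 11). Relative to all genes these medians were 0.11, -0.02, 0.08, 0.06 and 0.02, so that the direction turned for every complex but complex II.

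Outside the tissue-restricted isoforms, Ndufb7, Atp5e and Uqcrb lay farthest toward ApoE4 mice at 21 dpi. Ndufb7, in the membrane arm of complex I, had 116 FPKM in ApoE3 and 175 FPKM in ApoE4 mice at 21 dpi (log2 ratio -0.59), Atp5e, the epsilon subunit of ATP synthase, had 455 FPKM in ApoE3 and 669 FPKM in ApoE4 mice at 21 dpi (-0.55), and Uqcrb had 185 FPKM in ApoE3 and 269.8 FPKM in ApoE4 mice at 21 dpi (-0.54). Each was within 1.3-fold relative to the all-gene median, with values of -0.16, -0.13 and -0.12. Sdhd of complex II followed with 95.5 FPKM in ApoE3 and 138 FPKM in ApoE4 mice at 21 dpi (-0.52). Sdhb (-0.45) and Sdha (-0.43) lay close to the all-gene median, whereas Sdhc had 550.0 FPKM in ApoE3 and 605 FPKM in ApoE4 mice at 21 dpi and a log2 ratio of -0.14. Among the core and catalytic subunits, Ndufv2 (-0.49), Ndufs3 (-0.41), Uqcrfs1 (-0.44), Uqcrc1 (-0.41), Atp5a1 (-0.44) and Atp5c1 (-0.46) were past 1.3-fold toward ApoE4 mice, and Ndufv1 (-0.30), Ndufs7 (-0.27), Ndufs8 (-0.28) and Uqcrc2 (-0.25) were not. The remaining members past 1.3-fold were Ndufb6 (-0.52), Ndufb3 (-0.47), Cox5a (-0.45), Ndufa5 (-0.44), Ndufa2 (-0.43), Cox7a2l (-0.43), Atp5k (-0.42), Atp5l (-0.41), Ndufs6 (-0.41), Atp5md (-0.41), Uqcrh (-0.40), Ndufb10 (-0.39) and Atp5mpl (-0.39), all close to the all-gene median of -0.42.

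Markers of the cells of the cord also had higher values in ApoE4 mice at 21 dpi. The median log2 ratio was -0.46 for 9 neuronal markers, -0.54 for 7 oligodendrocyte markers, -0.72 for 6 astrocyte markers and -0.77 for 5 markers of microglia and macrophages. Fibroblast markers went the other way by their median, with 0.32 over 6 genes. Of these, 5 were above 0, from Col1a1 (0.08) to Dcn (2.60), and Pdgfra (-0.47) was higher in ApoE4 mice. Relative to all genes the medians of these lists were -0.03, -0.12, -0.29, -0.35 and 0.74 in the same order. At 7 dpi the medians were 0.26, 0.11, 0.09, -0.22 and -0.36 in this order, over 11, 5, 6, 6 and 6 genes. All 11 neuronal markers were then higher in ApoE3 mice and all 6 fibroblast markers in ApoE4 mice. The part of these cells in the subunit values was not tested at either time. In tissue RNA fewer cells of a type and less RNA per cell cannot be told apart.

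**Figure D2:**
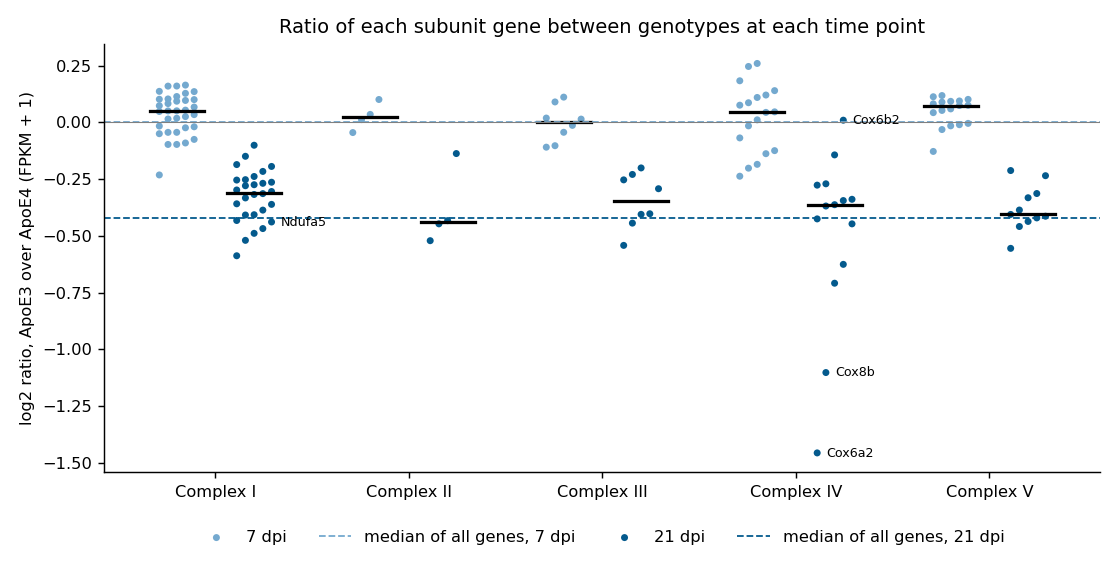
log2 ratio of ApoE3 to ApoE4 mice on FPKM + 1 for each member, by complex, at 7 dpi (light) and 21 dpi (dark); black bars are medians and dashed lines the medians of all genes. At 7 dpi the points scatter around 0, and at 21 dpi most lie near the all-gene median of -0.42, so that the direction of the members' median turns once it is subtracted; Cox6a2 and Cox8b lie far below.

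Some complex IV isoforms of particular tissues stood apart from the other members at 21 dpi. Cox6a2 was at 3.16 FPKM in ApoE3 and 10.4 FPKM in ApoE4 mice at 21 dpi (log2 ratio -1.46, -1.03 relative to all genes), and Cox8b at 3.04 FPKM in ApoE3 and 7.68 FPKM in ApoE4 mice at 21 dpi (-1.10, -0.68 relative to all genes). These 2 were the members past 1.3-fold toward ApoE4 mice after subtraction of the all-gene median. Cox4i2, an isoform known from lung and vascular mural cells, had 5.60 FPKM in ApoE3 and 9.79 FPKM in ApoE4 mice at 21 dpi (-0.71). Cox7b2, known from testis, had 0.842 FPKM in ApoE3 and 1.84 FPKM in ApoE4 mice at 21 dpi (-0.63), and Cox7a1 had 1.94 FPKM in ApoE3 and 2.79 FPKM in ApoE4 mice at 21 dpi (-0.37). Relative to all genes Cox4i2 was at -0.29 and Cox7b2 at -0.20, both within 1.3-fold, and the direction of Cox7a1 turned to 0.05. Cox6b2, also known from testis, went the other way, since its 92.6 FPKM in ApoE3 and 92.0 FPKM in ApoE4 mice at 21 dpi gave a log2 ratio of 0.01, the only member value above 0, and 0.43 relative to all genes.

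Each isoform was far below its common partner in every group where both were listed. With 1 added to each FPKM value, the log2 level of Cox6a2 over Cox6a1 was -6.05 in ApoE3 and -6.32 in ApoE4 mice at 7 dpi, and -7.48 and -6.38 at 21 dpi. With nothing added, as in all percentages here, Cox6a2 had 1.22%, 0.964%, 0.427% and 1.09% of the Cox6a1 FPKM. Because such a ratio is formed within a group, a scale factor of that group does not enter it beyond the pseudocount. Cox8b over Cox8a was -7.20, -7.51, -7.75 and -6.92 in the same order, and with nothing added Cox8b had 0.432%, 0.309%, 0.351% and 0.733% of the Cox8a FPKM. Cox4i2 had 0.404%, 0.492%, 0.332% and 0.459% of the Cox4i1 FPKM, and the log2 values for Cox7b2 over Cox7b were -6.20, -5.92, -7.20 and -6.72. The partners Cox7a2 and Cox6b1 were listed at 7 dpi only, where Cox7a1 over Cox7a2 was -7.13 in ApoE3 and -6.80 in ApoE4 mice. Cox6b2 was the exception in level, with 90.2 and 103 FPKM in ApoE3 and ApoE4 mice at 7 dpi and 92.6 and 92.0 FPKM at 21 dpi, and at 7 dpi it reached 9.29% of the Cox6b1 FPKM in ApoE3 and 11.7% in ApoE4 mice (log2 -3.41 and -3.09 with 1 added). For Cox6a2 and Cox8b the ApoE3 value was the higher at 7 dpi and the ApoE4 value at 21 dpi.

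The ratios of ApoE3 to ApoE4 of skeletal muscle markers had the same direction as those of Cox6a2 and Cox8b for all 10 listed at 21 dpi and by their median at 7 dpi. At 21 dpi 10763 of all 11469 genes also had this direction. Relative to all genes, 9 of the 10 markers were below 0 at 21 dpi, with a median of -2.66 over the 10, and Casq1 turned to 0.13. Of 17 markers, 9 were listed at 7 dpi, with a summed level of 73.0 FPKM in ApoE3 and 50.3 FPKM in ApoE4 mice, and 10 at 21 dpi, with 40.4 and 744 FPKM. Tnnt3, the fast troponin T and the most abundant of them, had 45.7 and 26.5 FPKM in ApoE3 and ApoE4 mice at 7 dpi and 22.5 and 515 FPKM at 21 dpi. The median log2 ratio of ApoE3 to ApoE4 of the list was 0.28 at 7 dpi and -3.09 at 21 dpi. In the earlier comparison Myl1 (-0.74), Casq1 (-0.17) and Mb (-0.04) went the other way, and so did Cox7a1 (-0.24), itself a muscle isoform. Between 7 and 21 dpi the median of the 8 markers listed at both was -0.66 in ApoE3 mice, beside -0.33 for Cox6a2 and, in the opposite direction, 0.58 for Cox8b, and 3.25 in ApoE4 mice, beside 1.39 and 1.92. Myh4, a fast myosin heavy chain, was listed at 0 in ApoE3 mice at 21 dpi and at 3.40 FPKM in ApoE4 mice. Mural cell markers, set beside Cox4i2, were listed for 6 of 6 genes at 7 dpi with sums of 246 and 250.98 FPKM and for 5 at 21 dpi with 211 and 258 FPKM, and Rgs5, the most abundant, had 86.8 and 109 FPKM at 21 dpi. Relative to all genes the median log2 ratio of ApoE3 to ApoE4 of these 5 turned to 0.10 at 21 dpi. Of them 4 were above 0 and Higd1b was at -0.35, whereas Cox4i2 was at -0.29. Of 6 fat markers only Cidea was listed, at 1.63 and 1.72 FPKM in ApoE3 and ApoE4 mice at 7 dpi and 2.89 and 4.51 FPKM at 21 dpi. The part of any of these cells in the isoform values was not tested.

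**Figure D3:**
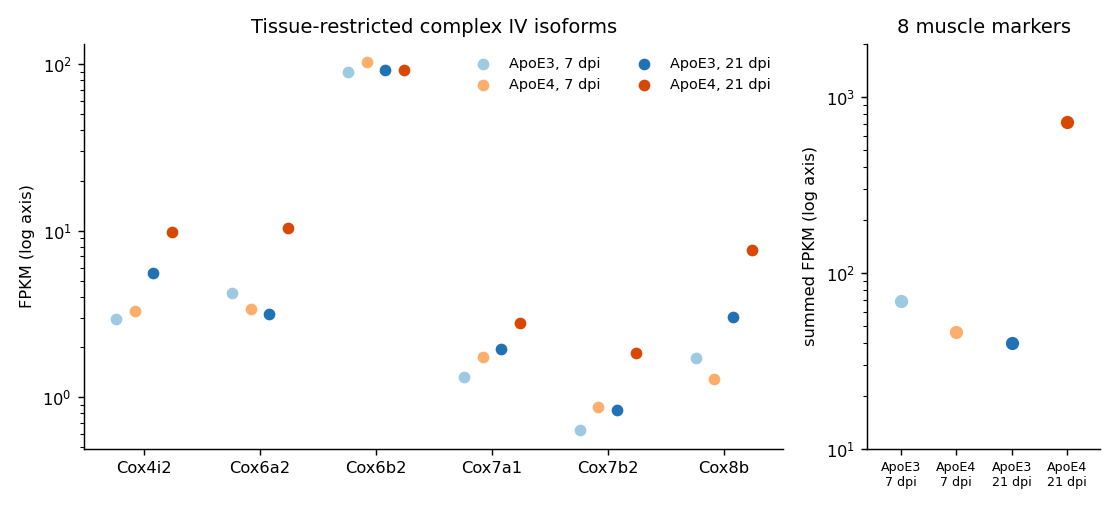
Left, FPKM on a log axis of 6 tissue-restricted complex IV isoforms in the 4 groups; right, summed FPKM on a log axis of the 8 skeletal muscle markers listed at both time points. The ApoE4 group of 21 dpi has the highest value for every isoform except Cox6b2 and a muscle marker sum of 722 FPKM, against 39.97 FPKM in ApoE3 mice.

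The promoters of Cox8a and Cox8b show how the common and the muscle isoform of this single pair differ in sequence. Capitals mark CCGGAAGT or its reverse complement in Cox8a (2 sites), and TATAAA (1 site) and CAGCTG (2 sites), an E-box of the kind bound by muscle regulatory factors, in Cox8b. The latter motifs were chosen after the values were seen. Other pairs differed from this one. Of the other restricted isoforms with a promoter, Cox7b2 held TATAAA, and Cox7a1, a muscle isoform, and Cox6b2 held neither TATAAA nor CAGCTG. The common partners Cox6a1, Cox6b1, Cox7a2 and Cox7b did not hold CCGGAAGT.
Cox8a: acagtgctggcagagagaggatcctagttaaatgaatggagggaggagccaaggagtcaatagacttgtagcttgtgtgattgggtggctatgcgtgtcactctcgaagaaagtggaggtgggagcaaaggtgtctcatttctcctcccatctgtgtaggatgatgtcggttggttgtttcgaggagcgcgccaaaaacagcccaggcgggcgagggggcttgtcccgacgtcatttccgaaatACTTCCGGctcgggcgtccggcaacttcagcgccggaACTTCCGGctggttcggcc
Cox8b: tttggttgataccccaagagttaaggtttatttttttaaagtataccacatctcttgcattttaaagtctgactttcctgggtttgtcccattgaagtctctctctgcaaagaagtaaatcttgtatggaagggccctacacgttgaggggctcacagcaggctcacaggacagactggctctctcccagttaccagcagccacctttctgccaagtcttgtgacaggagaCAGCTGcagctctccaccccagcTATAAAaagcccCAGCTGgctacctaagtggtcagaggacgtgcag
Cox8a lies at chr19:7217567-7217866 and Cox8b at chr7:140900397-140900696, both on the minus strand of GRCm38.p6, and both stretches end 50 bases inside the transcribed region. TATAAA was in 8 of the 68 member promoters (11.8%), against 9.17% among listed genes and 15.7% in the whole table, and CAGCTG in 6 (8.82%), against 18.2% and 18.3%.

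Between 7 and 21 dpi the subunit genes were higher at 21 dpi in both genotypes, with medians above that of all genes. In ApoE3 mice 59 of the 65 members listed at both time points were at least 1.3-fold higher at 21 dpi, against 31.3% of all 10876 such genes, and 0 were at least 1.3-fold higher at 7 dpi, against 23.6%. In ApoE4 mice 64 of 65 were at least 1.3-fold higher at 21 dpi, against 59% of all genes, and 0 at 7 dpi, against 10.9%. The median log2 ratio of 21 to 7 dpi was 1.11 in ApoE3 mice, against 0.09 for all genes, and 1.45 in ApoE4 mice, against 0.53. At least 2-fold higher at 21 dpi were 44 members in ApoE3 mice, against 6.1% of all genes, and 59 in ApoE4 mice, against 21.3%. After the all-gene median was subtracted, 58 members in ApoE3 mice (26.6% of all genes) and 59 in ApoE4 mice (26.2%) were still at least 1.3-fold higher at 21 dpi, and 1 in each was at least 1.3-fold lower (27.7% and 28.6% of all genes), Cox6a2 in ApoE3 and Cox6b2 in ApoE4 mice. As a share of the summed FPKM of all genes listed at both time points, these 65 genes took 1.02% in ApoE3 and 1.003% in ApoE4 mice at 7 dpi, and 1.81% and 1.69% at 21 dpi.

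Complex I had the highest medians. Its 28 genes were all at least 1.3-fold higher at 21 dpi in both genotypes, with a median log2 ratio of 1.22 in ApoE3 and 1.64 in ApoE4 mice. Its 5 core subunits listed at both time points (1.11 and 1.68) and 23 accessory subunits (1.22 and 1.64) had much the same medians. Ndufa5, an accessory subunit of the ubiquinone-binding module, had the largest ratio of any member in both genotypes, 1.65 and 2.25, which is 3.14-fold and 4.77-fold. In ApoE3 mice Ndufb2 (1.55), Ndufb5 (1.53), Ndufa3 (1.51) and Ndufa11 (1.49) came next. Of the core subunits, Ndufs7, which holds the last iron-sulfur cluster before ubiquinone, had 132 and 128 FPKM in ApoE3 and ApoE4 mice at 7 dpi and 364 and 440.0 FPKM at 21 dpi, and Ndufs8 had 233 and 229.6 FPKM in ApoE3 and ApoE4 mice at 7 dpi and 503 and 611 FPKM at 21 dpi. Ndufv1, at the entry of electrons from NADH, had 246 FPKM in ApoE3 and 304 FPKM in ApoE4 mice at 21 dpi, and ratios of 1.27 and 1.68 to the values of 7 dpi.

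Complex II had the lowest medians, 0.49 in ApoE3 and 0.99 in ApoE4 mice, and its genes did not move as a block. Sdhb was at 1.03 and 1.43, Sdha at 0.58 and 1.11, Sdhc at 0.39 and 0.54, and Sdhd at 0.31 and 0.86. Thus the iron-sulfur subunit was nearest to the other complexes and both membrane anchors were below it. With 4 genes, this median rests on few values.

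Complex III had medians of 0.96 and 1.28, with all 8 genes at least 1.3-fold higher at 21 dpi in both genotypes. The small subunits Uqcr11 (1.25 and 1.44) and Uqcrq (1.24 and 1.36) had larger ratios than the large core proteins Uqcrc1 (0.66 and 1.02) and Uqcrc2 (0.86 and 1.22), while Uqcrb, also small, had 0.70 and 1.26, and the Rieske protein Uqcrfs1 had 0.86 and 1.29. Complex IV had 0.92 and 1.39 over 14 genes. Without Cox7a2l and the isoforms its 7 genes had 1.17 and 1.49. The 6 members within 1.3-fold in ApoE3 mice were Cox6a2 (-0.33), Cox6b2 (0.04), Cox7b2 (0.17), Sdhd (0.31), Cox7a1 (0.34) and Atp5g2 (0.34), and in ApoE4 mice Cox6b2 alone (-0.16). Cox6a2 had a ratio of 1.39 and Cox8b of 1.92 in ApoE4 mice.

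Complex V had medians of 1.11 and 1.42 over 11 genes. Atp5a1 (alpha) had 331 FPKM in ApoE3 and 448 FPKM in ApoE4 mice at 21 dpi, with ratios of 0.68 and 1.21, and Atp5c1 (gamma) had 901 FPKM in ApoE3 and 1238 FPKM in ApoE4 mice at 21 dpi, with ratios of 0.57 and 1.15. The small subunits Atp5k (1.33 and 1.798) and Atp5md (1.25 and 1.76) were above both, and Atp5g2 (0.34 and 0.64) was below both. The c subunit, which forms the rotating ring, is encoded by 3 genes that give the same mature protein. Atp5g1 had 484 and 464 FPKM in ApoE3 and ApoE4 mice at 7 dpi and 1054 and 1310.0 FPKM at 21 dpi, and Atp5g2 had 230.4 and 236 FPKM in ApoE3 and ApoE4 mice at 7 dpi and 292 and 368 FPKM at 21 dpi, while Atp5g3 had 1396 FPKM in ApoE3 and 1319.8 FPKM in ApoE4 mice at 7 dpi and was not listed at 21 dpi. Of the sum of Atp5g1 and Atp5g2, Atp5g2 took 32.3% in ApoE3 and 33.7% in ApoE4 mice at 7 dpi and 21.7% and 21.9% at 21 dpi, a share within each group that does not depend on its scale.

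**Figure D4:**
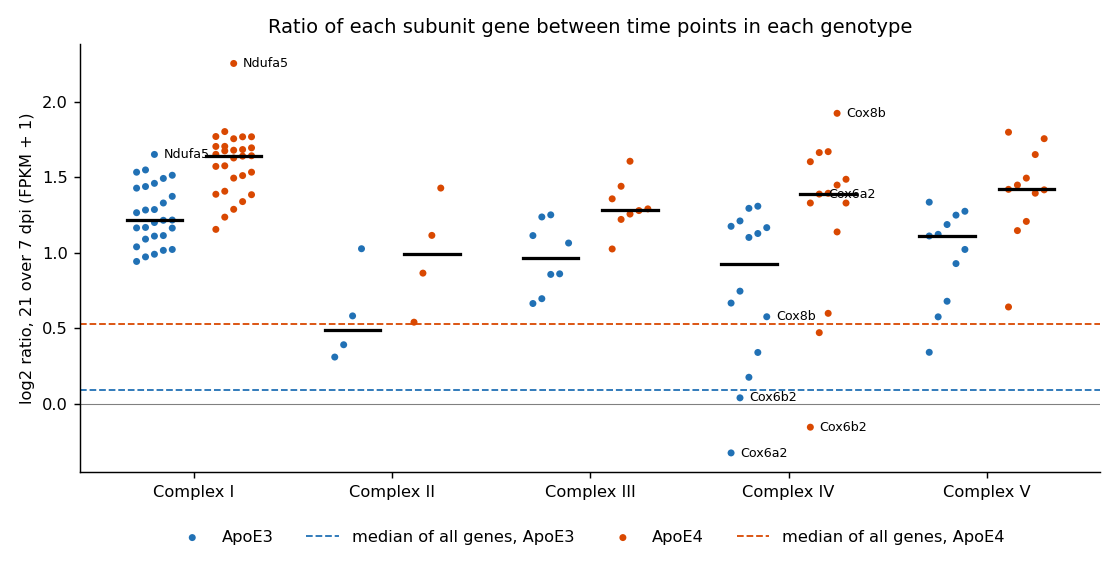
log2 ratio of 21 to 7 dpi on FPKM + 1 for each of the 65 members listed at both time points, by complex, in ApoE3 (blue) and ApoE4 (orange) mice; black bars are medians and dashed lines the medians of all genes, 0.09 and 0.53. Nearly all points lie above the dashed line of their genotype, complex I has the highest and complex II the lowest medians.

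In all, 16 members were listed at 7 dpi and not at 21 dpi, so the ratios between time points leave them out. They are Ndufa4, Ndufa7, Ndufa9, Ndufa10, Ndufb8, Ndufs1, Ndufs4, Cox5b, Cox6b1, Cox7a2, Atp5b, Atp5g3, Atp5h, Atp5j, Atp5o and Atp5pb. Their share, 19.8% of the members, was close to the 23.0% of all genes listed at 7 dpi that were absent from the later list. Several were abundant, such as Atp5j, Atp5g3 and Cox6b1, the last with 970.0 FPKM in ApoE3 and 881 FPKM in ApoE4 mice at 7 dpi.

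The make-up of the tissue RNA also differed between time points. Over the markers listed at both, neuronal markers summed to 5453 FPKM in ApoE3 and 4236 FPKM in ApoE4 mice at 7 dpi (9 of 11 genes) and to 8872 and 13015 FPKM at 21 dpi, most of it Snap25, a synaptic protein, while Slc6a5, a glycine transporter, was lower at 21 dpi in ApoE3 mice (254 and 226 FPKM). Oligodendrocyte markers (5 of 8) summed to 126991 and 134133 FPKM at 7 dpi and 210029 and 291373 FPKM at 21 dpi, nearly all of it Mbp, which encodes myelin basic protein, while Cldn11 was lower at 21 dpi in ApoE3 mice (286 and 218 FPKM). Markers of microglia and macrophages (5 of 9) went the opposite way, from 5114 and 6686 FPKM to 512 and 961 FPKM, most of it at 7 dpi the lysozyme gene Lyz2 with 4522 and 6076 FPKM in ApoE3 and ApoE4 mice at 7 dpi and 212 and 426 FPKM at 21 dpi. All 5 were at least 1.3-fold lower at 21 dpi in ApoE3 mice (23.6% of all genes), but only 3 in ApoE4 mice (10.9% of all genes), where Aif1 went from 285 to 319.6 FPKM. After the all-gene median was subtracted, 5 were in ApoE3 mice (27.7% of all genes) and 4 in ApoE4 mice (28.6% of all genes). Aif1 then turned to -0.36 in ApoE4 mice. Fibroblast markers (6 of 6) did the same, from 664 and 851 FPKM to 119 and 79.1 FPKM, led at 7 dpi by Col1a1, a collagen I gene, although Dcn, which encodes decorin, had 45.7 and 56.6 FPKM in ApoE3 and ApoE4 mice at 7 dpi and 61.9 and 9.37 FPKM at 21 dpi. Astrocyte markers (6 of 6), led by Gfap, summed to 17051 and 16607 FPKM and then to 10273 and 18865 FPKM. Relative to all genes their median log2 ratio of 21 to 7 dpi was -0.73 in ApoE3 and -0.27 in ApoE4 mice, with all 6 below 0 in both. No listed marker of these lists was at 0 in any group. By these sums the subunit genes went in the direction of the neuronal and oligodendrocyte markers and opposite to those of macrophages and fibroblasts, with the exceptions named. Erythrocyte markers were also higher at 21 dpi, with median log2 ratios to 7 dpi of 1.53 in ApoE3 and 1.825 in ApoE4 mice over 4 genes. The part of any of these cells in the subunit values was not tested.

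Subunit genes have short transcripts, and the ratio between time points varied with transcript length over the whole table. By GENCODE annotation, 64 of the 65 members had a length, with a median of 663 nt, against 2732 nt for 10294 of the 10811 other genes. Across those other genes the Spearman correlation of length with the log2 ratio of 21 to 7 dpi was -0.35 in ApoE3 and -0.30 in ApoE4 mice, as a description across genes that share each library. The 780 other genes with transcripts under 1000 nt had median ratios of 0.52 and 0.92, and the 47 members in that class had 1.16 and 1.49. From 1000 to 2000 nt, 2457 other genes had 0.34 and 0.74 and 13 members had 0.86 and 1.29, and from 2000 to 4000 nt 4364 other genes had 0.07 and 0.48 and 4 members had 0.90 and 1.35. The members were above the other genes in each class that held any. Relative to the other genes under 1000 nt, a comparison chosen after seeing the data, the members' median was 0.59 in ApoE3 and 0.53 in ApoE4 mice, where it was 1.03 and 0.92 relative to all genes; the part of length beyond this was not tested.

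Other genes of the pathway give a setting for these values. Assembly factors, which build the complexes without staying in them, were listed for 51 of 55 genes at 7 dpi and 44 at 21 dpi. Over the 43 listed at both, the median log2 ratio of 21 to 7 dpi was 0.50 in ApoE3 mice, with 29 genes at least 1.3-fold higher and 2 lower (31.3% and 23.6% of all genes), and 0.99 in ApoE4 mice, with 39 higher and 0 lower (59% and 10.9% of all genes). The factors of complexes I, III, IV and V had lower medians than the subunits of the same complex, and those of complex II had nearly the same, at 0.48 and 1.02 for complex I, 0.51 and 0.98 for complex II, 0.67 and 1.17 for complex III, 0.48 and 0.87 for complex IV and 0.44 and 0.88 for complex V. Between genotypes the factors' median was 0.00 at 7 dpi, with 2 of 51 at least 1.3-fold higher in each genotype (3.78% of all genes in ApoE3 and 4.76% in ApoE4 mice), and -0.36 at 21 dpi, with 0 of 44 higher in ApoE3 and 20 in ApoE4 mice, where 58.9% of all genes were. Their extremes were Uqcc1 (0.40) and Ndufaf6 (-0.51) at 7 dpi, and Cox15 (0.03), which makes heme a, and Ttc19 (-0.84) at 21 dpi. Within single complexes the highest and lowest at 7 dpi were Ecsit (0.33) and Ndufaf6 for complex I, Sdhaf3 (0.39) and Sdhaf1 (-0.17) for complex II, Uqcc1 and Bcs1l (-0.14) for complex III, Coa7 (0.28) and Cox17 (-0.44), a copper chaperone, for complex IV, and Atpaf1 (0.03) and Tmem70 (-0.16) for complex V. At 21 dpi they were Ndufaf3 (-0.12) and Ndufaf1 (-0.80), Sdhaf1 (-0.26) and Sdhaf2 (-0.51), Bcs1l (-0.04) and Ttc19, Cox15 and Cox20 (-0.68), and Atpaf2 (-0.31) and Tmem70 (-0.58).

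Electron carriers and subunits outside the symbol rule were listed for 7 of 7 genes at 7 dpi and 5 at 21 dpi, with a median ratio of 21 to 7 dpi of 0.77 and 0.97. Cycs, which encodes somatic cytochrome c, had 48.6 and 46.4 FPKM in ApoE3 and ApoE4 mice at 7 dpi and 84.9 and 110.2 FPKM at 21 dpi, and Ndufab1, the acyl carrier protein held in complex I, had 277 and 314 FPKM in ApoE3 and ApoE4 mice at 7 dpi and 603 and 816 FPKM at 21 dpi. Both were higher at 21 dpi, as the subunits were. Ndufa4l2, a relative of Ndufa4 known for its induction by hypoxia, had 15.1 and 17.7 FPKM in ApoE3 and ApoE4 mice at 7 dpi and 20.7 and 18.1 FPKM at 21 dpi, with the list's highest ratio of ApoE3 to ApoE4 at 21 dpi (0.18). Etfb had the lowest at 7 dpi (-0.32), Cyc1, the cytochrome c1 of complex III, the highest (0.12), and Etfa the lowest at 21 dpi (-0.60). None of the 7 was past 1.3-fold at 7 dpi, and 3 of 5 were at least 1.3-fold higher in ApoE4 mice at 21 dpi, where 58.9% of all genes were.

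Genes of the citric acid cycle and pyruvate dehydrogenase, which supply the electrons, were all listed at both time points (18 of 18). Their median ratio of 21 to 7 dpi was 0.47 in ApoE3 mice, with 12 genes at least 1.3-fold higher and 0 lower (31.3% and 23.6% of all genes), and 0.87 in ApoE4 mice, with 18 higher (59% of all genes). Their median ratio of ApoE3 to ApoE4 was 0.09 at 7 dpi, between Sucla2 (0.33) and Idh2 (-0.04), and -0.42 at 21 dpi, with 13 of 18 at least 1.3-fold higher in ApoE4 mice, where 58.9% of all genes were, between Idh2 (-0.17) and Dld (-0.85). Dld, the dehydrogenase shared by several mitochondrial enzyme complexes, had 43.4 and 43.8 FPKM in ApoE3 and ApoE4 mice at 7 dpi and 39.2 and 71.7 FPKM at 21 dpi.

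Regulators of mitochondrial gene expression had lower medians than the subunits. Of 13 genes, 12 were listed at 7 dpi and 8 at 21 dpi, and their median ratio of 21 to 7 dpi was 0.00 in ApoE3 mice, with 0 of 8 at least 1.3-fold higher and 2 lower (31.3% and 23.6% of all genes), and 0.23 in ApoE4 mice, with 2 higher and 0 lower (59% and 10.9% of all genes); relative to all genes the latter median turned to -0.30. Ppargc1a, a coactivator of mitochondrial biogenesis, had 90.6 and 68.9 FPKM in ApoE3 and ApoE4 mice at 7 dpi and 50.7 and 72.4 FPKM at 21 dpi. Its ratio of 21 to 7 dpi was -0.83 in ApoE3 and 0.07 in ApoE4 mice. Relative to all genes this ratio was -0.91 in ApoE3 mice and turned to -0.45 in ApoE4 mice. Nrf1, the factor whose letters are shown above, had 121 and 114 FPKM in ApoE3 and ApoE4 mice at 7 dpi and 129.6 and 177 FPKM at 21 dpi, and Tfam, which packages mitochondrial DNA, had 30.2 and 31.8 FPKM in ApoE3 and ApoE4 mice at 7 dpi and 34.0 and 54.5 FPKM at 21 dpi. At 7 dpi 2 of 12 regulators, Ppargc1a (0.39) and Esrrg (0.40), a nuclear receptor, were at least 1.3-fold higher in ApoE3 mice (3.78% of all genes). Toward ApoE4 mice 1 was, Pprc1 (-0.59), a relative of Ppargc1a (4.76% of all genes). At 21 dpi 6 of 8 were at least 1.3-fold higher in ApoE4 mice, where 58.9% of all genes were, between Tfb1m (-0.09) and Tfam (-0.67), and relative to all genes 0 were in either genotype. All of these values are mRNA levels and not activities.

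Lists of other large protein machines were also higher at 21 dpi, where 31.3% of all genes in ApoE3 and 59% in ApoE4 mice were at least 1.3-fold higher. The mitochondrial ribosome had median ratios of 0.78 and 1.07 over 63 of its 78 genes, with 54 at least 1.3-fold higher in ApoE3 and 63 in ApoE4 mice. The cytosolic ribosome had 0.49 and 0.82 over 51 of 73 genes, with 36 and 47 higher. The proteasome had 0.66 and 1.16 over 32 of 37 genes, with 22 and 30 higher, and 1 lower in ApoE3 mice (Psmb8, a subunit of the immunoproteasome, -0.66). The subunit medians of 1.11 and 1.45 were above all of these, a difference that was not tested. Glycolysis had 0.54 and 1.13 over 9 of 17 genes, with 7 and 8 at least 1.3-fold higher, Ldhb, a lactate dehydrogenase subunit, at 1.297 and 1.82 and Hk2, a hexokinase at least 1.3-fold higher at 7 dpi in ApoE3 mice, at -0.51 and -0.27. Genes of mitochondrial import, metabolite carriers and chaperones had 0.52 and 0.95 over 10 of 14 genes, with 9 and 10 at least 1.3-fold higher, led by Ckmt1, the mitochondrial creatine kinase, at 1.35 and 1.82.

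Between genotypes these lists lay near the all-gene medians. At 7 dpi the median ratios of ApoE3 to ApoE4 were -0.06 for the mitochondrial ribosome (from Mrps5, 0.24, to Mrps36, -0.38), -0.06 for the cytosolic ribosome (from Rpl38, 0.21, to Rps2, -0.50), 0.04 for the proteasome (from Psma2, 0.19, to Psmc3, -0.15), 0.05 for glycolysis (from Pfkp, 0.19, to Hk2, -0.19) and 0.00 for import, carriers and chaperones (from Ckmt1, 0.20, to Hspe1, -0.18). At 21 dpi they were -0.37 (from Mrpl14, -0.03, to Mrps23, -1.02), -0.37 (from Rpl38, -0.04, to Rps27l, -1.10), -0.42 (from Psmb3, -0.16, to Psmb8, -0.66), -0.40 (from Eno1, -0.25, to Pgk1, -0.61) and -0.40 (from Ckmt1, -0.27, to Slc25a5, -0.58, an ADP/ATP carrier). At 7 dpi only Mrps36 and Rps2, which entered the ribosome lists by symbol pattern alone, were past 1.3-fold, toward ApoE4 mice, where 4.76% of all genes were. None was toward ApoE3 mice, where 3.78% were. At 21 dpi no gene of these lists was at least 1.3-fold higher in ApoE3 mice, and in ApoE4 mice 30 of 63, 23 of 51, 21 of 32, 6 of 12 and 6 of 10 were, in the same order, against 58.9% of all genes. Relative to all genes the direction at 21 dpi turned for both ribosomes (0.06 and 0.05), glycolysis (0.02), import (0.02) and the assembly factors (0.06), as it did for the subunits (0.06).

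**Figure D5:**
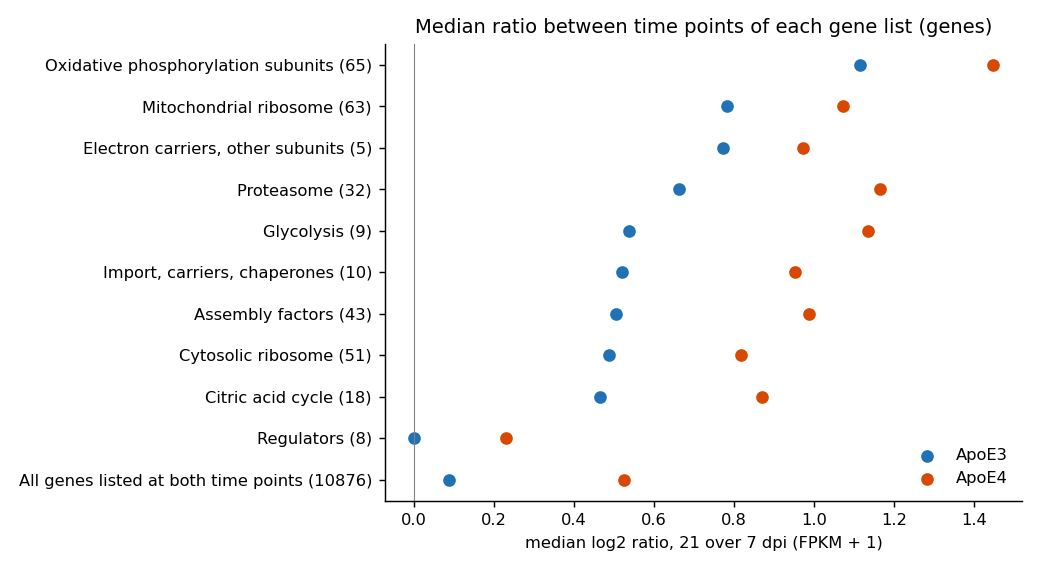
Median log2 ratio of 21 to 7 dpi on FPKM + 1 of each gene list in ApoE3 (blue) and ApoE4 (orange) mice, with the number of genes listed at both time points in parentheses. The oxidative phosphorylation subunits have the highest median of the lists drawn in both genotypes, and the regulators the lowest. Of the lists not drawn, erythrocyte markers had higher medians than the subunits in both genotypes (1.53 in ApoE3 and 1.825 in ApoE4 mice). Neuronal (1.66) and skeletal muscle markers (3.25) were also above the subunits in ApoE4 mice. In ApoE3 mice these 2 lists were below them, at 0.73 and -0.66. Relative to all genes the regulators' direction turns in ApoE4 mice.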

How the data were processed

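RNA was extracted with TRIzol and libraries were made with the TruSeq v2 kit. Per the study's methods, libraries were down-sampled to the same number of reads before alignment, and 1 library aligned less well than the others. The submitters' processing notes name STAR 2.5.4b, Bowtie2 2.1.10, SAMtools 0.1.7 and Cuffdiff 1.3.0; the genome build is not given in the sources used here. The authors deposited FPKM plus 1, as 1 value per gene and group, and 1 was subtracted here. The deposited table also holds their fold changes, p-values and q-values, and a further table their list of differing genes; none was used. Read depth per gene is unknown.

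Ratios were log2((FPKM + 1)/(FPKM + 1)), which understates differences of low genes. The threshold was the 1.3-fold of the study. Bcl2l2, Lilrb4a and Pde2a, each listed 2 times at 1 or both time points, were left out at both. Members and gene lists were chosen with earlier results of these data known. Lists were assembly factors of each complex, mitochondrially encoded subunits (0 of 13 listed), electron carriers, citric acid cycle, regulators, import, mitochondrial and cytosolic ribosomes, proteasome, glycolysis, and markers of skeletal muscle, fat, mural cells, neurons, oligodendrocytes, astrocytes, microglia and macrophages, Schwann cells, sensory ganglia, liver, erythrocytes and fibroblasts. Lists of ribosomal and proteasomal genes were matched by symbol pattern, so their sizes count listed genes.

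Named genes were both genes of each isoform pair; at each time point every member past 1.3-fold or, where fewer than 5 were, the 5 with the largest ratios in that direction, at a mean FPKM of at least 1; the highest and lowest member of each complex by mean FPKM; cofactor-carrying and catalytic subunits; the highest and lowest gene of each pathway list by ratio at each time point; and the most abundant gene of each marker list. Other genes in the text were chosen after their values were seen, and 1 marker gene with the sum it enters is not reported here. Transcript length was the median over protein-coding transcripts of the GENCODE basic annotation of GRCm38. Alternatives were a pseudocount of 0.1, a mean FPKM of at least 1, subtraction of the all-gene median, members listed at both time points, no tissue-restricted isoforms and no Cox7a2l, and thresholds of 1.2-fold and 1.5-fold. The functions were tested on simulated data (Python 3.11.15, numpy 2.4.6, pandas 2.3.3, matplotlib 3.10.9).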

Additional observations from a re-analysis of the deposited data

Results flagged for a closer look

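Members are given here whose difference had opposite signs in both conditions compared, after subtraction of the all-gene median, with at least 1 value past 1.3-fold. Each group has 1 value, so the difference between conditions was not tested for any of them. For Cox6a2 the log2 ratio of ApoE3 to ApoE4 relative to all genes was 0.26 at 7 dpi and -1.03 at 21 dpi, and its ratio of 21 to 7 dpi relative to all genes was -0.41 in ApoE3 and 0.86 in ApoE4 mice. For Cox8b the ratio of ApoE3 to ApoE4 relative to all genes was 0.24 at 7 dpi and -0.68 at 21 dpi. Beside both, the summed skeletal muscle markers were 40.4 FPKM in ApoE3 and 744 FPKM in ApoE4 mice at 21 dpi, and their part in these values was not tested. Cox6b2 had the opposite pattern, with -0.19 at 7 dpi and 0.43 at 21 dpi relative to all genes; its FPKM values lay between 90.2 and 103 in the 4 groups, so that the value at 21 dpi comes from the subtracted all-gene median.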

How the results depend on the processing

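With 1 value per group there is no error to set a difference against, and a median was taken as unchanged only where it was the same to 2 decimals, and a count where it was within 1.5 times. By this, 74 values were unchanged, 45 moved and 7 turned direction. Subtracting the all-gene median turned the direction at 21 dpi of the members' median log2 ratio of ApoE3 to ApoE4 to 0.064 and of complexes I, III, IV and V to 0.11, 0.075, 0.057 and 0.017, gave -0.017 for complex II, and turned complex III at 7 dpi to -0.0016; these follow from the subtraction. It gave 1 member at least 1.3-fold higher in ApoE3 and 2 in ApoE4 mice at 21 dpi, and medians of 1.03 and 0.92 for the ratio of 21 to 7 dpi in ApoE3 and ApoE4 mice. With thresholds of 1.2-fold and 1.5-fold, 49 and 5 members were higher in ApoE4 mice at 21 dpi, the latter Cox6a2, Cox8b, Cox4i2, Cox7b2 and Ndufb7. There is no share of all genes at these thresholds to set beside the counts, and the all-gene median was itself at -0.42. A pseudocount of 0.1 gave 1 member past 1.3-fold in each direction at 7 dpi, Cox8b toward ApoE3 and Cox7b2 toward ApoE4 mice, medians of 1.12 and 1.49 between time points in ApoE3 and ApoE4 mice, and 0.045 and -0.39 for complex IV between genotypes at 7 and 21 dpi. Members listed at both time points had a median of 0.025 at 7 dpi, with 0.041 for complex I and 0.059 for complex V, and complex IV turned to -0.0024, since fewer genes enter. A mean FPKM of at least 1 gave 0.046 for complex IV at 7 dpi and 1.12 between time points in ApoE3 mice. Without the isoforms and Cox7a2l the medians were -0.34 for all members and -0.34 for complex IV at 21 dpi, 0.075 for complex IV at 7 dpi, and 1.16 and 1.49 between time points. Chosen after seeing the data, subtraction of the median of other genes under 1000 nt gave 0.59 and 0.53 between time points, and a threshold of 2-fold gave 44 and 59 members.

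With a pseudocount of 0.1 the log2 isoform ratios, in the order ApoE3 and ApoE4 at 7 dpi and ApoE3 and ApoE4 at 21 dpi, were -7.90, -7.62, -8.21 and -7.75 for Cox4i2, -6.32, -6.65, -7.83 and -6.50 for Cox6a2, -7.35, -6.85, -8.16 and -7.26 for Cox7b2, and -7.77, -8.23, -8.11 and -7.07 for Cox8b, and at 7 dpi -3.43 and -3.10 for Cox6b2 and -7.83 and -7.37 for Cox7a1. Every isoform ratio moved with the pseudocount. No paired analysis was possible because each group has 1 value. Limits shared by all results are the absence of values for single mice and for uninjured mice, and the reading of the genotype columns. Further limits are the separate runs of the time points, the different gene lists at 7 and 21 dpi and the unknown read depth per gene.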

Other observations

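Markers of tissues outside the cord or of the nerve roots were uneven at 21 dpi. Of the Schwann cell markers, Drp2 had 83.9 and 81.7 FPKM in ApoE3 and ApoE4 mice at 7 dpi and 294 and 109 FPKM at 21 dpi, and Cldn19, listed at 21 dpi only, had 18.6 FPKM in ApoE3 and 0.188 FPKM in ApoE4 mice; both were chosen after their values were seen. Sensory ganglion markers (5 of 6 listed at 21 dpi) summed to 67.1 and 1.44 FPKM, with Mrgprd and Trpv1 listed at 0 in ApoE4 mice; at 7 dpi only Prph was listed, with 106 and 94.1 FPKM. Liver markers were not listed at 7 dpi and summed to 10.3 FPKM in ApoE3 and 107 FPKM in ApoE4 mice at 21 dpi (5 of 5), led by Apoa2 with 5.38 and 59.2 FPKM. Erythrocyte markers listed at both time points (4 of 5) summed to 346 and 347 FPKM at 7 dpi and 1063 and 1335 FPKM at 21 dpi, led by Hba-a1. Each is a single value per group, and the part of such tissue in the subunit values was not tested.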
